A study of Mus musculus with 30 samples.

Results

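The tubulin isotypes examined here were 10 genes chosen by name from the gene family, 4 alpha tubulins (Tuba1a, Tuba1b, Tuba1c, Tuba4a) and 6 beta tubulins (Tubb2a, Tubb2b, Tubb3, Tubb4b, Tubb5, Tubb6), out of 28586 genes with counts in either RNA fraction. No measured value entered the choice, although results on these data were known when the list was proposed. RNA came from the muscularis externa (ME), the muscle coat of the small bowel that houses the myenteric plexus, of young adult male mice that were naïve or had undergone intestinal manipulation (IM) 3 h (IM3h), 24 h (IM24h) or 72 h (IM72h) earlier, a surgical model of postoperative ileus. The RiboTag fraction is mRNA pulled down with hemagglutinin-tagged RPL22 ribosomes, and the ME fraction is total RNA of the lysate. All RiboTag animals carried B6 Tg(Sox10-icre/ERT2)388Wdr/J and B6N.129 Rpl22tm1.1Psam/J, so the tag was switched on by tamoxifen in cells that express Sox10, the enteric glia. The same cross was used for ME at IM24h and IM72h, whereas ME of naïve and IM3h mice carried B6.Cg-Tg73.12Mvs/J(Gfap-cre) in place of the Sox10 transgene. For ME at IM24h and IM72h against naïve, the mouse line and the time after surgery therefore cannot be told apart. The tables held 3 naïve and 4, 4 and 4 operated RiboTag libraries at the 3 times, and 3 naïve and 3, 4 and 4 operated ME libraries. The labels list 4 naïve RiboTag samples, so 1 of them is not analysed here. The study describes its sequencing replicates as animals, but the lines of the tables carry no animal names, so p-values measure the spread between these libraries.

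Microtubules are hollow filaments built from dimers of 1 alpha and 1 beta tubulin, and mammals make each from several genes whose products, the isotypes, differ mainly in their acidic tails. Isotype composition varies between cell types, with Tubb3 the usual marker of neurons, Tuba1a and the class II genes Tubb2a and Tubb2b prominent in nervous tissue, and Tuba1b and Tubb5 found in most cells. Cells also adjust their tubulin mRNA to the pool of free dimers: TTC5 binds the first residues of a tubulin emerging from the ribosome and, with SCAPER and the CCR4-NOT deadenylase, has the mRNA degraded.

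The ends of the coding sequences are shown because the isotype tails are encoded there. Reads of these 3′ libraries start near the end of the transcript, so sequence shared there with other genes was also counted. The last 60 coding bases are written 5′ to 3′ from GENCODE release M21 transcripts, with the stop codon in capitals.
Tuba1c: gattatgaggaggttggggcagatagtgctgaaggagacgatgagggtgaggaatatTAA
Tuba4a: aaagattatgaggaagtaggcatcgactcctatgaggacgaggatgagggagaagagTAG
Tubb2a: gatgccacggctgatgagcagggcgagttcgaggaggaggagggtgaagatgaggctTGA
Tubb2b: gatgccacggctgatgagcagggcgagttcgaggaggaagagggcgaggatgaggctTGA
Tubb2a and Tubb2b differed at 3 of these 60 positions. Tuba4a, the alpha isotype whose gene leaves out the terminal tyrosine codon, ends on another codon than Tuba1c. Over the aligned coding sequence, Tuba1a was 98.3% identical to Tuba1b and 97.6% to Tuba1c, and Tubb2a was 96.5% identical to Tubb2b. Beta members of other classes shared between 80.7% and 86.3% of aligned bases. Of the windows of 50 bases in the last 500 bases of the longest coding transcript, 56.3% (Tuba1a), 63.6% (Tuba1b) and 68.3% (Tuba1c) also stood in transcripts of other genes, chiefly each other and processed pseudogenes. The same share was 42.4% for Tubb2a, mostly with Tubb2b, and 35.3% for Tubb4b, with its pseudogenes. It was 0 for Tuba4a, Tubb2b, Tubb3, Tubb5 and Tubb6. Counts of Tuba1a, Tuba1b, Tuba1c, Tubb2a and Tubb4b thus depend on how the authors' quantification placed shared reads, and how far was not tested.

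The first 30 coding bases are shown because the first 4 codons, in capitals, encode the residues through which tubulin mRNA decay is set.
Tuba1a: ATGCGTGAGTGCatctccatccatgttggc
Tuba1c: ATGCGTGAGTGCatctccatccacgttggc
Tuba4a: ATGCGCGAGTGCatttcagtccatgtgggg
Tubb2a: ATGCGCGAGATCgtgcacatccaggcgggc
Tubb2b: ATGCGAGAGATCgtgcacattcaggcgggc
Tubb5: ATGAGGGAAATCgtgcacatccaggccgga
These 12 bases were identical in Tuba1a, Tuba1b and Tuba1c. They differed at 1 position in Tuba4a, and at 1 position between Tubb2a and Tubb2b.

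In the GENCODE annotation of GRCm38 (mm10), Tuba1b (ENSMUSG00000023004, chromosome 15, 98931425 to 98934565, minus strand), Tuba1a (ENSMUSG00000072235, 98949837 to 98953703, minus strand) and Tuba1c (ENSMUSG00000043091, 99029891 to 99038110, plus strand) are neighbours. Tuba1a and Tuba1b both lie under a longer annotated gene of the same strand, Gm49450. Tubb2a (ENSMUSG00000058672, chromosome 13, 34074274 to 34078007) and Tubb2b (ENSMUSG00000045136, 34126748 to 34130466) form the other pair, both on the minus strand. The remaining genes stand alone: Tuba4a (ENSMUSG00000026202) on chromosome 1, Tubb3 (ENSMUSG00000062380) on chromosome 8, Tubb4b (ENSMUSG00000036752) on chromosome 2, Tubb5 (ENSMUSG00000001525) on chromosome 17 and Tubb6 (ENSMUSG00000001473) on chromosome 18. Overlaps with other genes were also annotated for Tuba4a (Stk16), Tubb3 (Gm20388) and Tubb4b (Fam166a).

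Library totals ran from 3010338 to 7899551 counts in RiboTag and from 6603125 to 12866014 in ME. One transcript inside a ribosomal RNA gene, AY036118, took 2.02 to 14% of counts in RiboTag libraries of naïve and IM3h mice, 22.2 to 59.2% at IM24h and 58 to 80.1% at IM72h. In ME it took 16.1 to 33.5% in naïve mice, 24.1 to 25.1% at IM3h and 1.33 to 6.5% at the later times. RiboTag libraries at IM72h held between 8814 and 11729 genes with a count, against 17262 to 19422 in naïve mice. Levels below are CPM, counts scaled to a common library size by TMM within a fraction, so levels are compared between libraries of 1 fraction, and between genes as transcripts without division by length, since 3′ libraries give about 1 read per transcript. In the glial fraction, 8 of 8 glial markers (Sox10, S100b and others) were called higher than in ME of naïve mice in a fit over both fractions (median log2 difference 3.24). RiboTag libraries of naïve mice also held 5192 to 8030.1 CPM of 8 smooth muscle markers and 759.6 to 1687 CPM of 12 neuronal markers. In the same fit 5 of 12 neuronal markers were called higher in RiboTag and 0 lower (median log2 difference 0.76). Of the smooth muscle markers, 0 were higher and 6 of 8 lower (median -1.10). The part of neuronal RNA in the RiboTag tubulin levels was not tested.

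In naïve mice Tuba1b was the most abundant tubulin mRNA of both fractions, at 463 CPM in RiboTag and 718 in ME, and its libraries did not overlap with those of the next gene. In RiboTag, Tuba1a (165 CPM), Tubb5 (150.4), Tubb2b (90), Tubb4b (71.9), Tubb2a (55.8), Tubb3 (39.1), Tuba4a (26.5), Tuba1c (22.8) and Tubb6 (22.0) followed, and each of these means had libraries that overlapped with those of its neighbour. In ME the order was Tubb5 (357 CPM), Tuba1a (278), Tubb4b (153), Tubb6 (127), Tubb2a (89.8), Tubb2b (83.3), Tuba1c (73.1), Tubb3 (52.2) and Tuba4a (48.8). Libraries of neighbouring genes were apart only between Tubb6 and Tubb2a and between Tuba1c and Tubb3 in that row. After IM the lower ranks changed places while Tuba1b had the highest mean in both fractions at each time. At IM3h Tuba1c and then Tubb6 came next in both fractions, and in ME the libraries of Tuba1c then overlapped with those of Tuba1b.

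The fractions were compared directly in naïve mice, where edgeR called 13.4% of genes higher and 12.7% lower in RiboTag. Among the members 0 were higher and 3 were lower in the glial fraction. Tubb6, the class V beta tubulin, was lower by a log2 difference of -2.17 ± 0.327 (SE, 3 against 3 libraries, edgeR adjusted p = 0.00205). Tuba1c was lower by -1.32 ± 0.341 (adjusted p = 0.0209) and Tubb5 by -0.89 ± 0.183 (adjusted p = 0.00816). The neuronal marker Tubb3 had a difference of -0.05 ± 0.546 (adjusted p = 0.956), and the other 6 members had differences between -0.74 and 0.47. Only the Tubb6 call held under each other scaling, and without RiboTag naïve library 2 the number of members called was 7, where 14.2% of all genes were called higher and 15.7% lower. The naïve fractions also came from different mouse lines, which cannot be told apart from the fraction.

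**Figure D1:**
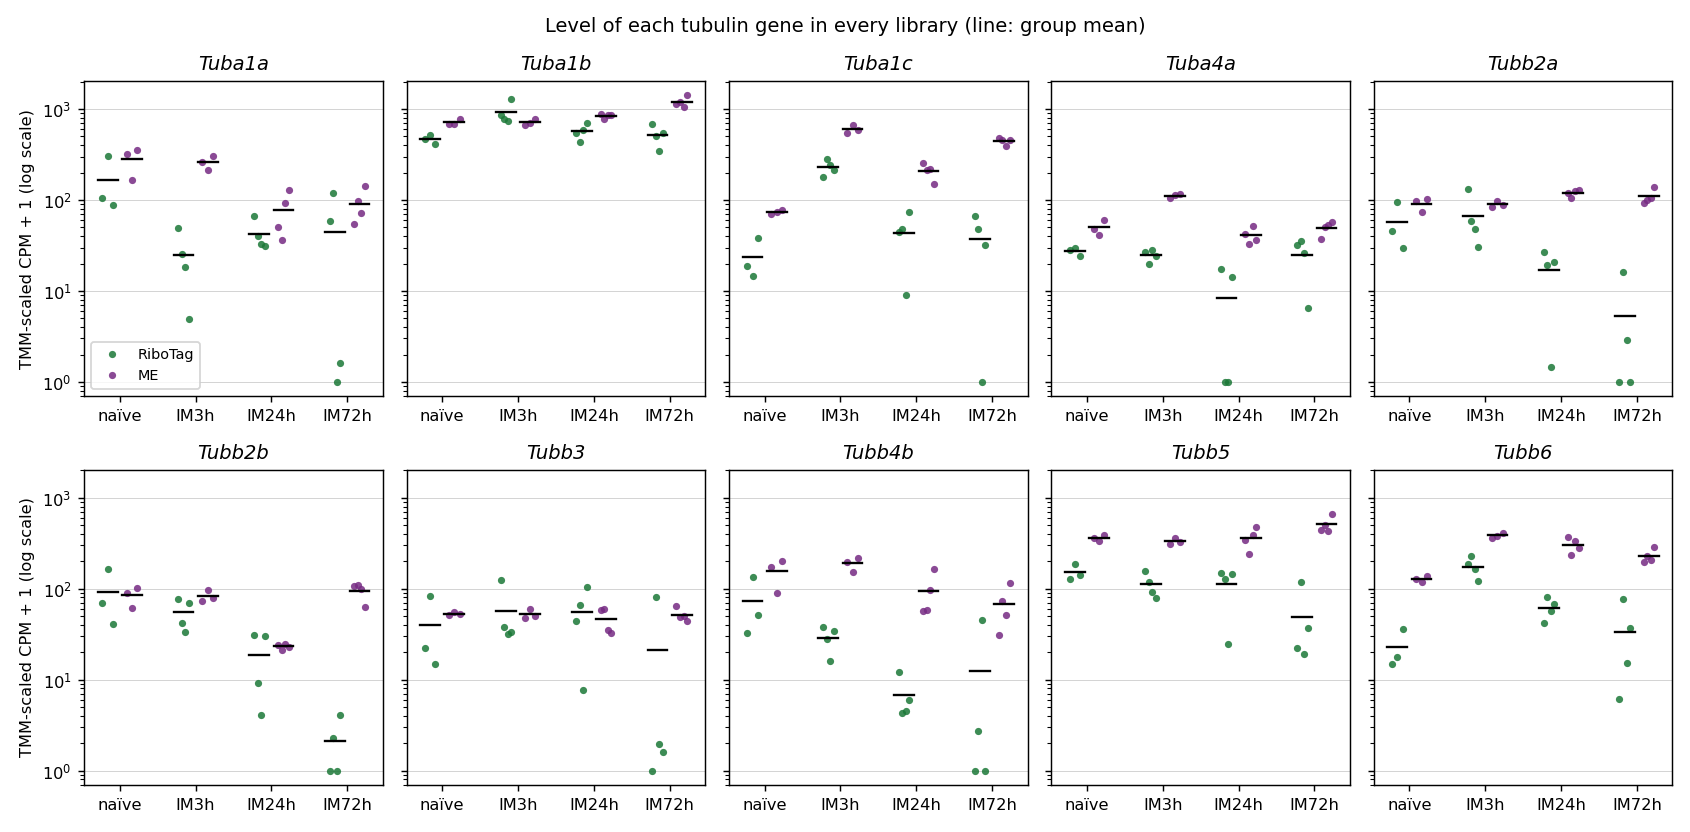
CPM + 1 of the 10 tubulin genes on a log axis in every library, with RiboTag in green, ME in purple and a line at the group mean. Tuba1c and Tubb6 lie above naïve in all 4 RiboTag and all 3 ME libraries at IM3h, while the RiboTag points at IM72h spread from 0 up to naïve levels for several genes.

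At IM3h, 3 members rose and 1 fell in RiboTag, where 8.86% of genes tested were called higher and 4.44% lower by edgeR at an adjusted p under 0.05. In ME 3 rose and 0 fell, against 19.3% and 13.4% of genes tested. All 10 members passed the filter on low counts in every comparison, and both fractions had a member median near that of all genes (log2 0.10 against -0.04 in RiboTag, 0.04 against 0.00 in ME). Libraries lay wholly above naïve for 3 members and wholly below for 1 in RiboTag, as for 10.6% and 12% of all genes with at least 10 counts in the groups compared. In ME they lay above for 3 and below for 0, against 19.9% and 20.3% of genes. Scaled to Actb, Hsp90ab1 and Rplp1 instead of TMM, the calls were 2 higher and 0 lower in RiboTag, against 1.51% and 1.91% of genes. In ME they were 3 higher and 3 lower, against 10.3% and 35.0%. Those genes moved the median of all genes by -0.40 in RiboTag and -0.41 in ME.

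Tuba1c, a broadly expressed alpha tubulin, had the largest rise of the 10 in both fractions. In RiboTag it was at 17.6, 13.5 and 37.4 CPM in naïve mice and at 179, 280.3, 241 and 215 CPM at IM3h. Every operated library thus lay several times above the highest naïve one, and the log2 fold change was 3.39 ± 0.378 (10.5-fold, edgeR adjusted p = 0.000208). In ME the levels were 69.0, 73.5 and 76.6 CPM in naïve mice and 550.0, 672 and 591 CPM at IM3h, a log2 fold change of 3.09 ± 0.119 (adjusted p = 2.56e-07). The change did not differ detectably between fractions, with an interaction of 0.37 ± 0.398 (adjusted p = 0.756).

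Tubb6 moved the same way. RiboTag libraries held 13.9, 16.6 and 35.4 CPM in naïve mice and 184, 228, 163 and 121 CPM at IM3h. Groups were again apart, and the log2 fold change was 3.05 ± 0.377 (8.26-fold, edgeR adjusted p = 0.000393). In ME, 126, 117 and 138 CPM in naïve mice compared with 359, 381 and 412 CPM, a log2 fold change of 1.64 ± 0.109 (adjusted p = 3.48e-06). The difference between the fractions, 1.48 ± 0.406, missed the threshold (adjusted p = 0.0825). Tubb6 is on the list of gliosis genes that the study examined in these samples, so its rise here is not independent evidence of that list's direction.

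Both rises were called in RiboTag under every scaling and without any single library, but not when all 4 RiboTag groups shared 1 estimate of spread (adjusted p = 0.383 for Tuba1c and 0.227 for Tubb6). All comparisons with naïve mice within a fraction share the same 3 naïve libraries. Of the 8 glial markers, 1 was called higher and 3 lower in RiboTag at IM3h, and their summed level was 1294 to 2804 CPM. Smooth muscle markers, 3 of 8 called lower, summed to 2090.0 to 5401 CPM, and fibroblast markers, 3 of 6 called lower, to 334 to 499 CPM from 777 to 1059. Their part in the tubulin changes was not tested.

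Tuba1a, the alpha isotype of developing and mature neurons, fell in the glial fraction at the same time. Its RiboTag levels were 103, 304 and 86.9 CPM in naïve mice and 48.5, 24.5, 17.5 and 3.9 CPM at IM3h, all below the lowest naïve library. The log2 fold change was -2.75 ± 0.644 (edgeR adjusted p = 0.0153). Naïve library 2 was the highest of its group, and without it the value was -1.93 (adjusted p = 0.0962). In ME the groups overlapped, with 318, 163 and 353 CPM in naïve mice, 262, 213 and 306 CPM at IM3h and a change of -0.05 ± 0.244 (adjusted p = 0.903). The interaction was -2.60 ± 0.830 (adjusted p = 0.135).

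Tuba1b, the main alpha tubulin of most cells, rose in RiboTag from 468, 512 and 408 CPM to 864, 766, 746 and 1287 CPM, with no overlap. Its log2 fold change of 1.04 ± 0.262 (edgeR adjusted p = 0.0215) was not called without any 1 of the 3 naïve libraries (adjusted p from 0.0550 to 0.104). In ME it was at 682, 689 and 782 CPM before and 669, 709 and 775 CPM after IM, and the change was 0.05 ± 0.109 (adjusted p = 0.771).

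Tuba4a rose in ME, from 46.6, 40.6 and 59.3 to 103, 112 and 116 CPM (log2 1.22 ± 0.143, edgeR adjusted p = 0.000139). In RiboTag it stood at 27.2, 28.9 and 23.5 CPM in naïve mice and 25.5, 18.9, 27.4 and 23.4 CPM at IM3h, overlapping groups with a change of -0.10 ± 0.287 (adjusted p = 0.878). The difference itself passed the test: the interaction was -1.23 ± 0.292 (adjusted p = 0.0464), the 1 member called of 0.952% of genes called higher and 0.703% lower. It was not called when scaled to library totals (adjusted p = 0.0987) or to the 3 reference genes (adjusted p = 0.405), nor without any 1 of 11 of the 13 libraries (adjusted p up to 0.171). The ME animals were of the Gfap-cre line and the RiboTag animals of the Sox10 line, which cannot be told apart from the fraction. Interactions of the members without a value here lay between -1.54 and 1.09.

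The other beta tubulins were not called at IM3h in either fraction. Tubb4b, a broadly expressed class IV isotype, came nearest in RiboTag, with 31.7, 133 and 50.8 CPM in naïve mice and 37.2, 26.9, 14.9 and 32.9 CPM at IM3h (log2 -1.3 ± 0.448, edgeR adjusted p = 0.0767). Tubb2a, Tubb2b, Tubb3 and Tubb5 had RiboTag changes between -0.67 and 0.57 and ME changes between -0.06 and 0.04, and Tubb4b had an ME change of 0.34 ± 0.248. Tubb3 stood at 124 CPM in RiboTag IM3h library 1 and between 30.4 and 36.8 CPM in the other 3, and that library also had the highest neuronal marker sum of its group, 2478 CPM against 1168 to 1575. The part of neuronal RNA in these values was not tested.

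**Figure D2:**
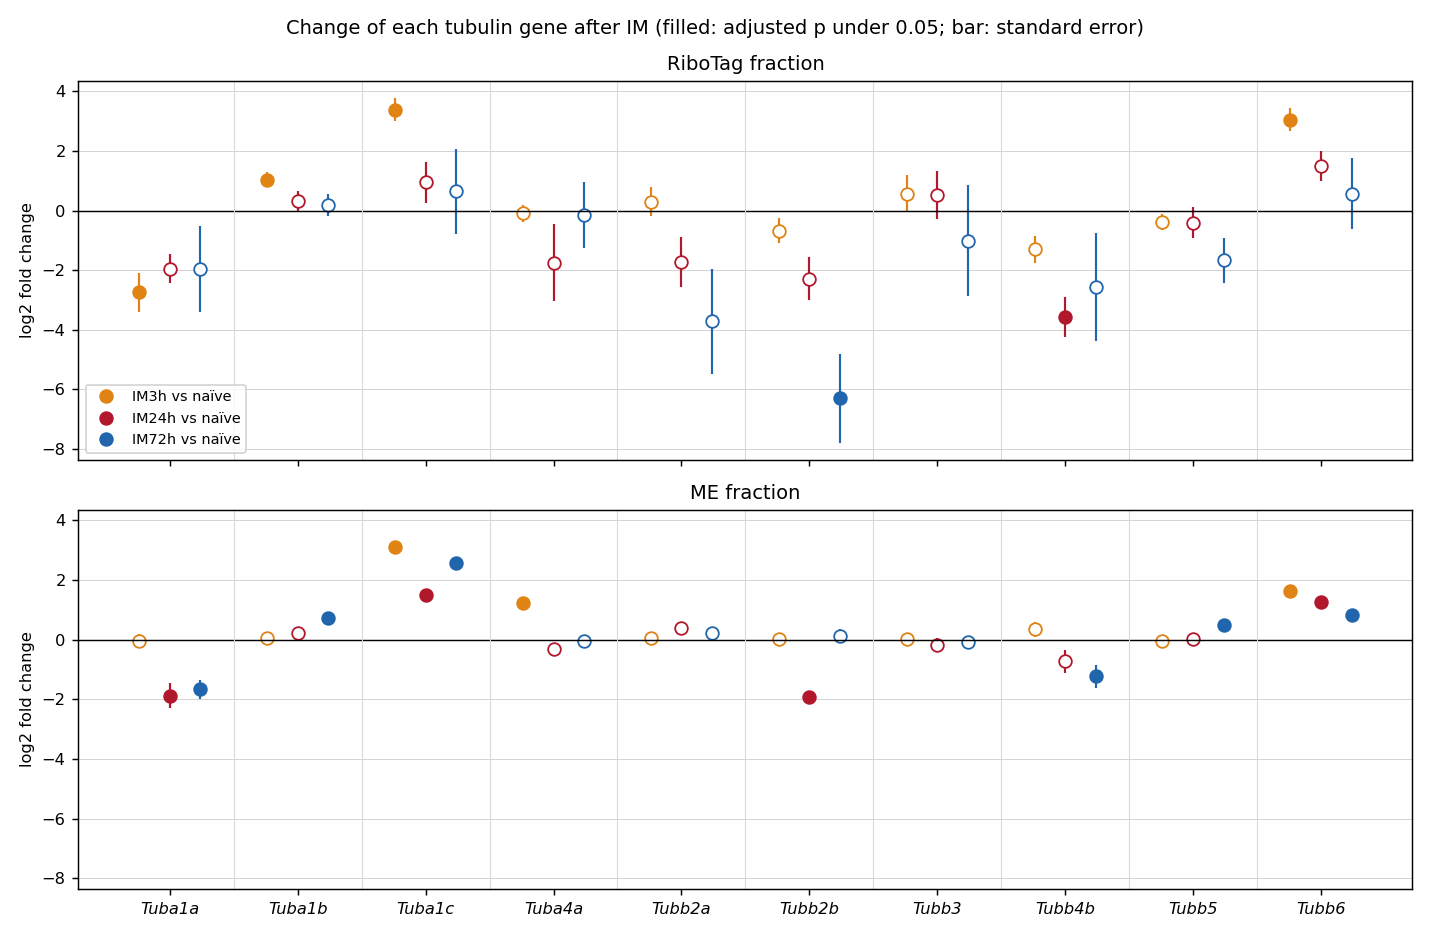
Log2 fold change against naïve mice with its standard error for each gene at 3 times, RiboTag above and ME below, filled where the edgeR adjusted p was under 0.05. Tuba1c and Tubb6 are filled above 0 at IM3h in both panels and at all 3 times in ME, and the error bars of RiboTag widen at IM72h.

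At IM24h, 0 members were higher and 1 was lower in RiboTag, where 0.366% of genes were called higher and 0.131% lower by edgeR. Of the 10, 4 had an unadjusted p under 0.05, against 13.2% of all genes, and DESeq2 called 3, all lower, where it called 2.49% of genes lower. ME had 2 higher and 2 lower members, with 15.6% and 13.4% of genes called in the same directions. Scaled to library totals the ME calls were 4 higher and 2 lower, against 38.4% and 4.43% of genes, and scaled to Actb, Hsp90ab1 and Rplp1 they were 1 higher and 2 lower, against 4.63% and 11.4%. Without overlap, 1 member lay above and 5 below naïve in RiboTag, against 4.65% and 11.6% of genes, and 3 above and 2 below in ME, against 15.3% and 17.5%.

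Tubb4b was the RiboTag member called. From 31.7, 133 and 50.8 CPM in naïve mice it stood at 11.1, 3.25, 3.52 and 4.94 CPM, which rest on 89, 8, 8 and 26 counts. The groups did not overlap, and the log2 fold change was -3.57 ± 0.681 (edgeR adjusted p = 0.0424). The call was lost without any 1 of 6 of the 7 libraries, and without both libraries in which AY036118 took most counts it was -3.10 (adjusted p = 0.0717), a test added after the data were seen. Glial markers summed to 772 to 931 CPM in RiboTag at IM24h, below all naïve libraries, with 0 of 8 called, and 3 of 8 smooth muscle markers were called lower. Their part in the tubulin values was not tested. In ME the groups overlapped at 172, 89.6 and 199 CPM and 56.3, 57.7, 95.1 and 162 CPM (log2 -0.73 ± 0.387, adjusted p = 0.184).

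Tubb6 remained above naïve in RiboTag at 41.3, 79.7, 55.5 and 66.3 CPM without passing the test (log2 1.49 ± 0.507, edgeR adjusted p = 0.188). Against IM3h, where 0.965% of genes were called higher and 0.937% lower at IM24h, it was lower by -1.45 ± 0.339 (adjusted p = 0.0472). Tuba1c was the other member lower than at IM3h, at 43.1, 47.2, 7.93 and 72.2 CPM (log2 -2.35 ± 0.512, adjusted p = 0.0368). Leaving out single libraries left 0 to 1 of these 2 calls, with adjusted p up to 0.186. The other 8 members differed from IM3h by -2.20 to 0.90. Tuba1a stood at 65.2, 39.4, 31.7 and 30 CPM, all under the naïve range (log2 -1.95 ± 0.495, adjusted p = 0.0994).

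In ME at IM24h, Tuba1c and Tubb6 were still higher than in naïve mice and Tuba1a and Tubb2b were lower. Tuba1c reached 253, 210.1, 218 and 148 CPM (log2 1.5 ± 0.192, edgeR adjusted p = 0.000445) and Tubb6 367, 233, 333 and 280.3 CPM (log2 1.25 ± 0.186, adjusted p = 0.000988). All of these lay above the naïve libraries. The changes of Tuba1b, Tuba4a and Tubb5 were 0.23, -0.31 and 0.02 and were not called.

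Tuba1a stood at 48.8, 35.2, 91.4 and 128 CPM, all below the lowest naïve value of 163 (log2 -1.88 ± 0.419, edgeR adjusted p = 0.00782). Tubb2b, a class II isotype, went from 89.7, 60.2 and 100 CPM to 23.2, 20.3, 23.6 and 21.6 CPM (log2 -1.92 ± 0.192, adjusted p = 0.000164). In RiboTag it was at 68.1, 162 and 40.3 CPM in naïve mice and 29.6, 8.13, 3.08 and 29.2 CPM at IM24h (log2 -2.29 ± 0.724, adjusted p = 0.156). ME neuronal markers summed to 567 to 729.7 CPM at IM24h against 792 to 837 in naïve mice, with 6 of 12 lower and 1 higher, and smooth muscle markers to 3426 to 11294 against 23027 to 24704. In such bulk RNA, fewer cells of a type and less RNA per cell cannot be told apart, and the part of these cell types in the tubulin values was not tested.

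The remaining members of RiboTag at IM24h did not pass the test. Tubb2a, the other class II isotype, was at 25.9, 18.3, 0.441 and 19.6 CPM, all under the naïve values of 44.3, 94.5 and 28.7 (log2 -1.74 ± 0.840, edgeR adjusted p = 0.410). Tuba4a was at 16.5, 0, 0 and 13.1 CPM, also under naïve mice (log2 -1.75 ± 1.29, adjusted p = 0.651). The values of 0 were those of libraries 2 and 3, where AY036118 took 59.2 and 58.1% of counts. These libraries held 13560 and 11629 genes with a count, against 16746 and 16477 in libraries 1 and 4. Tubb5 overlapped with its naïve values of 127, 186 and 139 CPM at 146, 126, 23.8 and 145 CPM, and Tubb3, at 42.6, 64.6, 6.61 and 104 CPM, overlapped as well. Tuba1b, at 547, 437, 586 and 703 CPM, overlapped too (log2 0.33 ± 0.332, adjusted p = 0.769), as did Tuba1c (log2 0.95 ± 0.695, adjusted p = 0.650).

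In ME neither Tubb2a nor Tubb3 was called at any time against naïve mice. Tubb2a stood between 72.6 and 101 CPM in naïve mice and reached 118, 103, 125 and 129 CPM at IM24h, above all naïve libraries (log2 0.39 ± 0.169, edgeR adjusted p = 0.106). Tubb3 stood at 50.9, 53.9 and 51.6 CPM in naïve mice and between 31.2 and 63.3 CPM in all operated libraries. Its log2 changes were 0.03, -0.19 and -0.07 at the 3 times.

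The change at IM24h differed between the fractions for 0 of 10 members by edgeR, where 0.277% of genes were called higher and 0.260% lower, with 2 at an unadjusted p under 0.05 (Tubb2a and Tubb4b), against 13.4% of all genes, and 1 called lower by DESeq2, against 2.67%. The 10 interactions lay between -2.78 and 0.74, and the change of mouse line within ME cannot be told apart from them.

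At IM72h, 0 members were higher and 1 was lower in RiboTag, and 1.05% of genes were called higher and 15.1% lower. The median log2 fold change was -1.34 over the members and -0.40 over all genes tested. ME had 4 higher and 2 lower members, against 29.3% and 28.3% of genes. The ME split was 8 higher and 1 lower scaled to library totals, which moved the median of all genes by 0.60 and called 51.3% higher and 11.8% lower, and 1 higher and 4 lower scaled to the 3 reference genes, which moved it by -0.60 and called 12.1% higher and 48.1% lower. Without overlap, 0 members lay above and 3 below naïve in RiboTag, against 1.91% and 22.5% of genes, and 4 above and 1 below in ME, against 26.1% and 25.5%.

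The RiboTag call was Tubb2b, with counts of 0, 3, 0 and 5 at IM72h against 539, 1439 and 342 in naïve mice. At 0 to 3.06 CPM these libraries lay far under the naïve range of 40.3 to 162 CPM, and the fitted log2 fold change was -6.30 ± 1.48 (edgeR adjusted p = 0.0193), a value that depends on how counts of 0 are offset. The call was lost without naïve library 2 (adjusted p = 0.173) and without a filter on low counts (adjusted p = 0.148). In ME, Tubb2b was back at 105, 109.9, 97.9 and 61.9 CPM (log2 0.13 ± 0.213 against naïve, adjusted p = 0.611). The interaction of -6.69 ± 1.2 (adjusted p = 0.00125) was called under every alternative run, and it was the 1 member called of 2.12% of genes higher and 21.1% lower. The median interaction was -1.04 over all genes, and the other 9 members lay between -4.02 and -0.34. Mouse line differs between ME at IM72h and naïve ME, and cannot be told apart from this difference.

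RiboTag levels of several other members spread widely at IM72h, with libraries at or near 0. Tuba1a was at 57.2, 117, 0 and 0.613 CPM, Tuba1c at 66.2, 46.4, 0 and 30.6, and Tubb3 at 0, 80.1, 0.955 and 0.613. Tubb4b had counts of 0, 4, 46 and 0. Tubb2a had counts of 0, 35, 2 and 0, and at 0, 15.3, 1.91 and 0 CPM all its libraries lay under the naïve range (log2 -3.72 ± 1.76, edgeR adjusted p = 0.254). Tubb5 was at 21.3, 117, 18.1 and 35.5 CPM, all below the naïve range, without passing the test (log2 -1.67 ± 0.747, edgeR adjusted p = 0.218). Tubb6, at 5.2, 75.7, 14.3 and 35.5 CPM, and Tuba4a, at 31.2, 34.1, 24.8 and 5.51 CPM, overlapped with naïve mice. Tuba1b kept 687, 503, 348 and 537 CPM, overlapping with naïve mice (log2 0.18 ± 0.370, edgeR adjusted p = 0.902). Tuba1b had 364 to 1452 counts per library and any other member at most 267. RiboTag library 2, with the most tubulin counts beyond Tuba1b, had 143 CPM of glial markers where the other 3 had 958 to 1454, and 9162 CPM of smooth muscle markers where the other 3 had 2120.4 to 3672. Without it 4 members were called lower, Tubb2a, Tubb2b, Tubb3 and Tubb5, as were 27.2% of all genes in that fit. In the fit with all libraries, 2 of 8 glial markers were called lower in RiboTag at IM72h and 0 higher, where 15.1% of all genes were lower. Sox10 was 1 of these 2 markers.

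In ME at IM72h, Tuba1c was at 477, 456, 393 and 453 CPM (log2 2.58 ± 0.124 against naïve, edgeR adjusted p = 2.76e-07) and Tubb6 at 196, 226, 206 and 283 CPM (log2 0.81 ± 0.145, adjusted p = 0.000681), both above all naïve libraries. Tuba1b rose to 1139, 1198, 1061 and 1411 CPM (log2 0.71 ± 0.132, adjusted p = 0.000862). Tubb5, the class I beta tubulin of most and of dividing cells, rose to 443, 497, 434 and 654 CPM from 356, 329 and 385 (log2 0.48 ± 0.156, adjusted p = 0.0214).

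Scaled to the reference genes, the ME values at IM72h were 0.12 for Tuba1b, -0.11 for Tubb5 and 0.23 for Tubb6, and none of these passed the test. Tuba1c remained called, as did Tuba1a, which had fallen to 53.3, 96.0, 70.6 and 140.1 CPM (log2 -1.66 ± 0.318 in the TMM fit, edgeR adjusted p = 0.00108). Tubb4b fell to 29.9, 71.7, 49.8 and 115 CPM, overlapping with naïve (log2 -1.24 ± 0.382, adjusted p = 0.0167), and was not called without naïve library 1 or 3. Tuba4a and Tubb2a had changes of -0.04 and 0.24 and were not called. In the same libraries 8 of 8 proliferation markers rose, to 381 to 483 CPM summed from 14.4 to 25.5 in naïve mice, 7 of 8 macrophage markers rose, and 7 of 12 neuronal markers fell while 2 rose. Smooth muscle markers summed to 13199.7 to 21562 CPM against 23027 to 24704, with 4 of 8 lower, and glial markers to 157 to 308 CPM against 121 to 145, with 3 of 8 higher and 2 lower. Their part in the tubulin changes was not tested.

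IM72h and IM24h of ME share 1 mouse line. Here 3 members rose and 0 fell, against 18.6% and 19.9% of genes called by edgeR. Tubb2b rose by 2.04 ± 0.185 on the log2 scale (adjusted p = 3.30e-05), Tuba1c by 1.07 ± 0.171 (adjusted p = 0.000721) and Tuba1b by 0.48 ± 0.139 (adjusted p = 0.0192). In the same comparison 7 of 8 proliferation, 4 of 8 smooth muscle, 3 of 8 glial, 3 of 6 fibroblast and 4 of 6 epithelial markers were called higher. Of 12 neuronal markers 4 were lower and 1 higher, and of 8 macrophage markers 4 were higher and 1 lower. Neutrophil markers (3 of 5) and markers of interstitial cells of Cajal (3 of 4) were lower. The part of these cells was not tested. Tuba1a differed by 0.22 ± 0.393 (adjusted p = 0.696), and the other 6 members by -0.51 to 0.46.

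**Figure D3:**
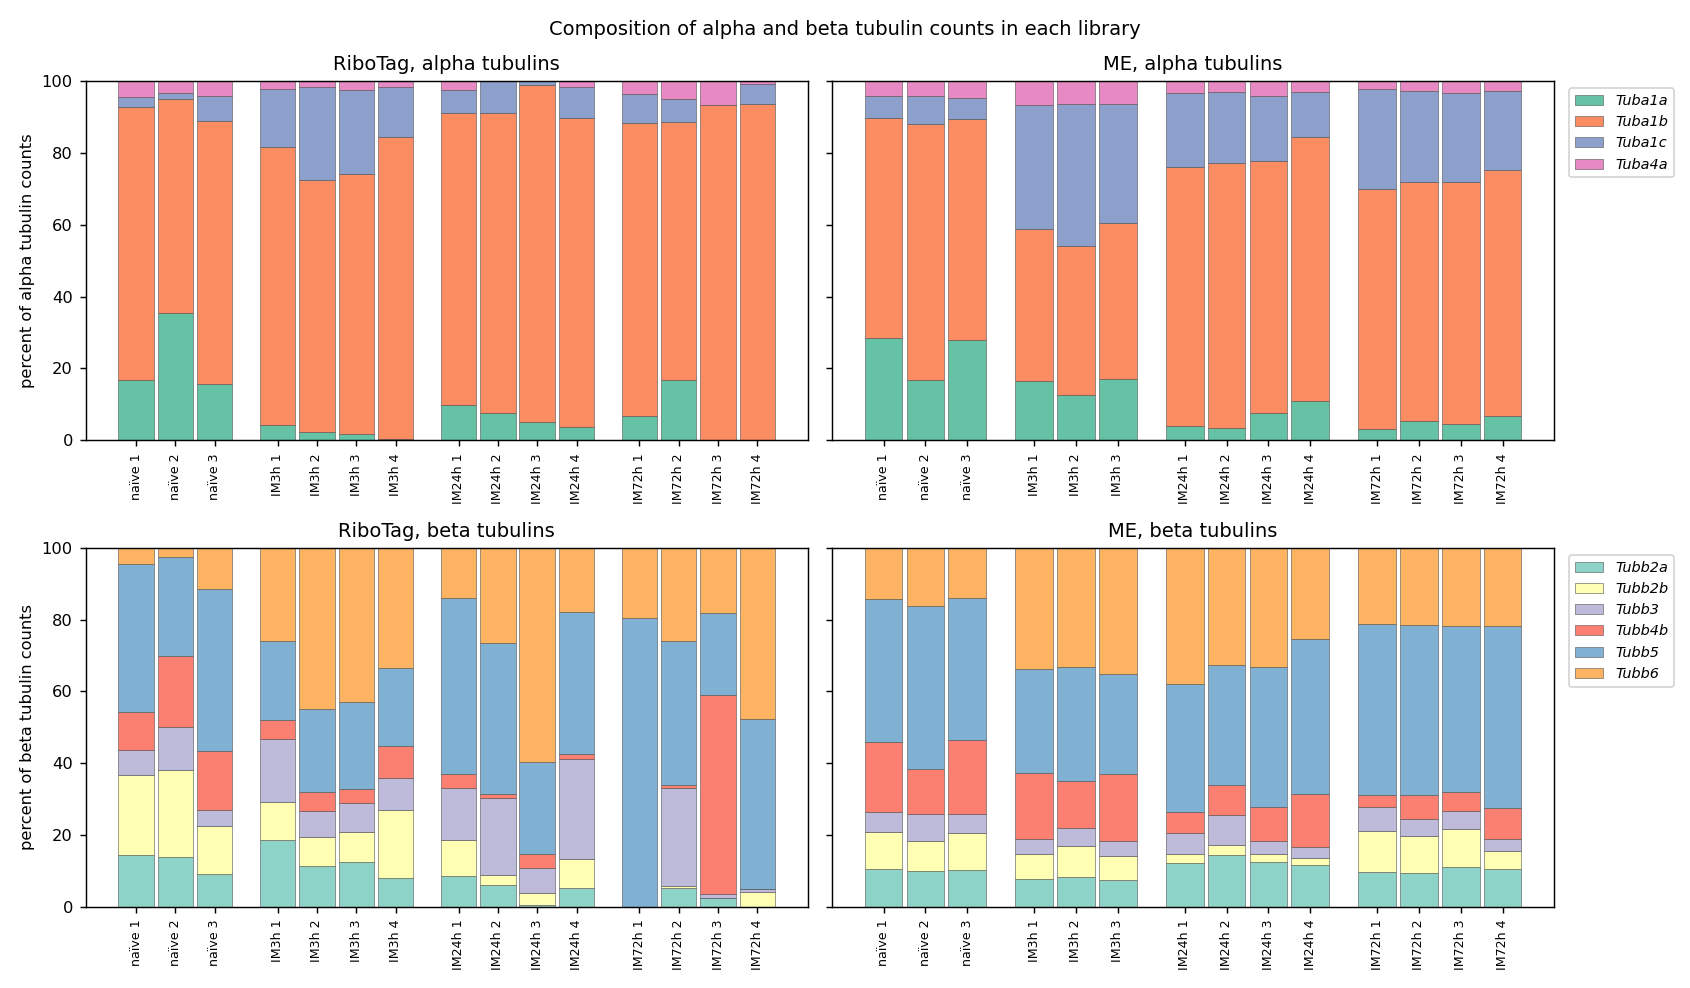
Share of each gene in the summed counts of the 4 alpha tubulins (upper row) or the 6 beta tubulins (lower row) in every library of RiboTag (left) and ME (right). The Tuba1c and Tubb6 segments widen at IM3h in both fractions, and RiboTag beta shares at IM72h rest on 56 to 665 counts per library.

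Shares within a library do not depend on scaling and were described without a test. In RiboTag, Tuba1b made up 69.7% ± 8.80 (SD, n = 3) of alpha counts in naïve mice and 76.0% ± 6.20 (n = 4) at IM3h. Tuba1c went from 3.72% ± 2.68 to 19.8% ± 5.64 and Tuba1a from 22.6% ± 11.1 to 2.13% ± 1.69. In single libraries the Tuba1a share was between 15.6% (95% Wilson interval 14.6 to 16.7) and 35.4% (34.4 to 36.5) before and between 0.255% (0.189 to 0.345) and 4.34% (4.02 to 4.68) after IM. These intervals cover counting error only.

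ME showed the Tuba1c shift at all times and the Tuba1a shift later. Tuba1c took 6.61% ± 0.870 (SD, n = 3) of alpha counts in naïve mice, 35.7% ± 3.28 (n = 3) at IM3h, 17.8% ± 3.57 (n = 4) at IM24h and 25.0% ± 2.45 (n = 4) at IM72h. Tuba1a took 24.4% ± 6.54, 15.4% ± 2.52, 6.45% ± 3.52 and 4.93% ± 1.54.

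Among beta tubulins, Tubb6 went from 6.17% ± 4.73 (SD, n = 3) of RiboTag counts to 36.8% ± 8.81 (n = 4) at IM3h, and in ME from 14.8% ± 1.16 to 34.0% ± 0.981, 32.4% ± 5.17 and 21.6% ± 0.361 at the 3 times. Tubb5 was the largest beta share of naïve mice, at 38.0% ± 9.21 in RiboTag and 41.7% ± 3.39 in ME. Tubb4b fell from 15.5% ± 4.77 to 5.89% ± 2.23 and 2.49% ± 1.49 in RiboTag at IM3h and IM24h, and at IM72h 1 library held 55.4% (95% Wilson interval 44.7 to 65.6) and the other 3 at most 0.602%. The ratio of alpha to beta counts was 1.7 ± 0.381 in naïve RiboTag libraries and 1.3 ± 0.0419 in ME. It was 2.67 ± 1.14, 3.24 ± 2.34 and 11.6 ± 13.6 in RiboTag after IM, where the last mean rests on a library with 56 beta counts, and 1.5 ± 0.0209, 1.26 ± 0.175 and 1.7 ± 0.102 in ME. At IM24h in RiboTag, library 3 had a ratio of 6.73 on 211 beta counts, and the other libraries had 1.75 to 2.27.

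The 10 members together were 0.148% to 0.282% of RiboTag counts in naïve mice and 0.215% to 0.311% at IM3h, overlapping ranges. Without AY036118 in the total, the members made up 0.0713% to 0.14% at IM72h, below the naïve range of 0.155% to 0.297%. In ME they made up 0.119% to 0.2% in naïve mice and 0.306% to 0.402% at IM72h, or 0.179% to 0.239% and 0.316% to 0.412% without AY036118.

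Patterns over all libraries of a fraction were compared as a description. RiboTag libraries share the mouse line and the depth and AY036118 differences given above, and ME libraries differ in line between the early and the late times. Over 15 RiboTag libraries and 17920 genes, log2 CPM of Tubb6 was most like Ist1, the immediate early gene Junb (Pearson r = 0.94 each) and the calcineurin regulator Rcan1 (0.90), and that of Tuba1c most like Cd44, a hyaluronan receptor, and Ggnbp2 (0.94 each) and Zcchc10 (0.93). Tuba1a was like Cacna2d3 (0.94), which encodes a calcium channel subunit, and Rbm38 (0.93). Among beta tubulins, the most alike genes were Sec24c, C4b and Myl12a for Tubb2a (0.97 each), Hprt, Ppia and Tor1aip2 for Tubb2b (0.96 each) and Esd (0.98), Cops3 and Abhd4 (0.97 each) for Tubb5. Tubb3 was most like Stx17 (0.95), Lrp8 and Rpl7l1 (0.94 each), Tubb4b like Uqcrb (0.97), Adprh (0.93) and M6pr (0.92), Tuba4a like Golph3 (0.93), Ncoa4 (0.92) and Ms4a7 (0.89), and Tuba1b like Ddx6, H2-K1 and Chmp4b (0.84 each).

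Over 14 ME libraries and 17909 genes, Tubb6 was most like Acot9 and Tspan4 (0.96 each). Tuba1c was most like Rangap1, Coq8b and Grb2 (0.96 each) and Tuba1b like Capns1, Col5a1 and the mitotic gene Cdca8 (0.96 each). Tubb5 followed Krt17 (0.92), Tcf19 and Uba1 (0.90 each), and Tuba4a followed Eif1 (0.97), 1810013L24Rik (0.96) and Phlda2 (0.95). Tuba1a and Tubb4b, whose own r was 0.89, were most like Fez2, Gm6444 and mt-Atp6 (0.98 each) and like Rpl37rt, Rpl31-ps8 (0.97 each) and Gm9794 (0.96). Tubb2b was most like B230118H07Rik, Capzb and Etfb (0.97 each), Tubb3 like Zbtb44 (0.91), Gm15853 and Prtg (0.86 each), and Tubb2a like Rpl39 (0.89), Cavin3 (0.88) and Mprip (0.86).

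RefSeq promoter sequences of GRCm38.p6 matched 8 of the 10 genes, Tubb2b and Tubb6 not among them. The 250 bases before the start were searched on both strands. The CCAAT box stood in 5 of 8 (33.8% of all 32851 promoters), GGGCGG in 6 of 8 (32.7%), TATAAA in 1 (12.4%, Tubb2a) and the cyclic AMP response element TGACGTCA in 1 (1.55%, Tubb2a). Matches to the AP-1 motif TGANTCA (6.75%), the heat shock element (0.466%) and the CArG box (1.47%) were found in 0 of 8. The upstream sequences of Tuba1c, which had the largest rise, and of Tubb4b, which fell in the glial fraction at IM24h, are shown 5′ to 3′ with matches in capitals.
Tuba1c, chr15:99029641-99029890, plus strand: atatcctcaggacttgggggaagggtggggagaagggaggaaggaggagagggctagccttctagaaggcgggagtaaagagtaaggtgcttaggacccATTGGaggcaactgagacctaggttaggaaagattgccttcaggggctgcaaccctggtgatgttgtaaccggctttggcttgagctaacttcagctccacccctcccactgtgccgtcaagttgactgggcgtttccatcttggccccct
Tubb4b, chr2:25224703-25224952, minus strand: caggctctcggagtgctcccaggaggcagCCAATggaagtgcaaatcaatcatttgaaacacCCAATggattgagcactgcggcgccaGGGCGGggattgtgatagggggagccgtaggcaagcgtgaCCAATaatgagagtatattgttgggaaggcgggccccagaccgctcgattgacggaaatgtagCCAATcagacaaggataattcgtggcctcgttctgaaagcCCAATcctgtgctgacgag
Tuba1c held 1 inverted CCAAT box and Tubb4b 5 forward CCAAT boxes and 1 GGGCGG. These letters are a description of the windows.

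Genes that fold, modify, bind or degrade tubulin products were counted by list, with 22 folding genes (the CCT chaperonin, prefoldin and tubulin cofactors), 12 genes of tubulin mRNA decay, 20 modifying enzymes, 33 microtubule binding or severing proteins and 10 other tubulin genes. At IM3h in RiboTag 5 of 22 folding genes rose and 0 fell (median log2 0.40 against -0.04 over all genes), where 8.86% of all genes were called higher and 4.44% lower, among them Tbcc (1.91 ± 0.402, edgeR adjusted p = 0.00910), a cofactor that releases the finished dimer, and the chaperonin subunit Cct6a (1.40 ± 0.273, adjusted p = 0.00608). In ME the counts of rising and falling folding genes were 8 and 1 (IM3h), 8 and 0 (IM24h), and 9 and 6 (IM72h), with medians of 0.27, 0.30 and 0.25. The shares of all genes called higher and lower in ME, against which these and the other list counts stand, were 19.3% and 13.4% (IM3h), 15.6% and 13.4% (IM24h), then 29.3% and 28.3% (IM72h). Cct3 rose by 0.74 ± 0.138 at IM3h and 1.27 ± 0.160 at IM24h in ME, while Tbcd fell by 0.90 ± 0.262 at IM3h.

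Of the 12 decay genes, edgeR called 0 in the glial fraction at IM3h, 0 at IM24h and 1 lower at IM72h. Ttc5, the factor that binds nascent tubulin, had an edgeR log2 change of -2.71 ± 1.07 in RiboTag at IM3h that did not pass the test (adjusted p = 0.124), and -0.47 ± 0.283 in ME (adjusted p = 0.235). In ME, 2 decay genes rose and 4 fell by IM3h. The IM24h libraries had 4 that rose and 2 that fell, and the IM72h libraries 5 and 2. Scaper fell in ME at each time, by 0.55 ± 0.188, 0.58 ± 0.193 and 0.86 ± 0.127 (adjusted p = 0.0457, 0.0462 and 0.000189), while Cnot11 rose by 1.06 ± 0.172 at IM24h and by 0.85 ± 0.145 at IM72h.

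Of the microtubule binding and severing genes, 4 of 33 rose and 1 fell in RiboTag at IM3h, near the shares of all genes. The polymerase Ckap5 rose by 1.87 ± 0.375 (edgeR adjusted p = 0.00710) and the severing subunit Katna1 by 1.73 ± 0.469 (adjusted p = 0.0301), while fidgetin, Fign, fell by 1.95 ± 0.322 (adjusted p = 0.00229). In ME, Fign fell by 1.89 ± 0.226 and Katna1 rose there by 1.86 ± 0.189. In ME, 8 binding or severing genes rose and 5 fell by IM3h. The IM24h libraries had 4 that rose and 10 that fell, and the IM72h libraries 7 and 15. Those lower at IM24h included Stmn3 (-1.44 ± 0.233), and at IM72h the neuronal proteins Dcx (-2.01 ± 0.376) and Map1a (-1.65 ± 0.155), whereas Stmn1, which binds free dimers, rose by 1.75 ± 0.167.

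Among 20 modifying enzymes 1 fell in RiboTag at IM3h, the deacetylase Sirt2 (-1.58 ± 0.329, edgeR adjusted p = 0.00848), of 16 that were tested, where 4.44% of all genes were called lower. In ME the glutamylase Ttll7 fell at each time, by 0.63 ± 0.124, 1.13 ± 0.155 and 1.69 ± 0.141, and the list had 3 higher and 1 lower, 0 and 2, and 6 and 4 called. In RiboTag at IM72h, 0 genes of the 5 lists rose and 10 fell, 1 other tubulin (Tubg2), 1 folding gene (Tbcc), 1 decay gene (Cnot10), 2 modifying enzymes (Ttll4 and Hdac6) and 5 binding genes, where the median of all genes was -0.40 and 15.1% of them were called lower.

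Of the 10 other tubulin genes, 3 were tested in each RiboTag comparison against naïve mice and 4, 4 and 6 in ME. In ME the neural isotype Tubb4a fell at each time, by 0.84 ± 0.224, 3.44 ± 0.585 and 1.26 ± 0.184 on the log2 scale (edgeR adjusted p = 0.0168, 0.00197 and 0.000178). At IM72h the gamma tubulin Tubg1, which nucleates microtubules, rose by 1.72 ± 0.221 (adjusted p = 7.09e-05) and the centriolar Tube1 rose too.

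Markers of the remaining cell types moved with the time after IM, mainly in ME. Summed over 8 genes, macrophage markers were at 166 to 172 CPM in naïve ME, 121 to 147 at IM3h, 489.7 to 591 at IM24h and 834 to 1140.0 at IM72h, and in RiboTag at 86.3 to 169, 67.3 to 123, 184 to 318 and 232 to 541 CPM. Neutrophil markers were at most 0.86 CPM in naïve ME and 44.3 to 211 at IM24h, and 2 of the 5 (Retnlg and S100a8) were at 0 in all naïve RiboTag libraries. Mesothelial markers fell from 97 to 141 CPM in naïve ME to 2.06 to 14.1 at IM3h, with 5 of 5 lower, and in RiboTag from 84.7 to 239 CPM to 6.93 to 67.9, with 3 of 5 lower. Fibroblast markers went from 2464 to 2587 CPM in naïve ME to 1309.6 to 1525 at IM3h, with 4 of 6 lower, and to 4059 to 4621 at IM72h, with 3 of 6 higher and 1 lower. Of the 4 markers of interstitial cells of Cajal, 3 were lower in ME at IM3h, 1 at IM24h and 4 at IM72h. Of 6 epithelial markers 2 were higher in ME at IM72h. Proliferation markers in RiboTag summed to 16.4 to 38.4 CPM in naïve mice and 160.5 to 522 CPM at IM72h, over the 7 of 8 genes present in the RiboTag tables, with Cdk1 at 0 in both groups. The part of these cells in the tubulin values was not tested.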

How the data were processed

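The deposited tables hold estimated counts per transcript that the authors made from QuantSeq 3′ libraries (single-end, 50 bases) with cutadapt, STAR and Partek against mm10, with the tool and transcript releases that the study's methods name. Of these values 53.3% were not whole, so they were summed to gene symbols and rounded. Libraries are lines of the tables whose names match no sample label, so each was assigned by its group entry alone, and 3 naïve RiboTag libraries, the same in each table, were used.

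Each comparison was fitted on all genes with edgeR 4.0.16 (R 4.3.3, limma 3.58.1): TMM scaling, filterByExpr, the two-sided quasi-likelihood test and Benjamini-Hochberg adjustment, called at an adjusted p under 0.05. DESeq2 1.42.0, other scalings, no filter, 1 fit over all groups and leaving out libraries were alternatives. Values after ± are SD, except for log2 changes. There they are approximate standard errors, the absolute log2 change divided by the square root of the quasi-likelihood F. Wilson intervals came from statsmodels 0.14.6 (Python 3.11.15). The fitting code was tested on simulated data.

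The members and gene lists were chosen with earlier results of these data known. From each other list, the text names genes among the 2 largest called rises and falls of a comparison. Ttc5 at IM3h, the 5 genes singled out by name in RiboTag at IM72h and the Sox10 marker were named after their values were seen. For each member genes among the 3 with the highest Pearson r of log2 CPM are given. Some items are not reported here.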

Additional observations from a re-analysis of the deposited data

Results flagged for a closer look

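In 5 of 50 sets of 4 libraries, 1 library stood apart from the other 3 by Dixon's criterion, which chance alone meets in about 1 in 20 groups. All 5 were in RiboTag. At IM72h these were Tubb2a at 15.3 CPM (next 1.91), Tubb3 at 80.1 CPM (next 0.955), both in library 2, and Tubb4b at 43.9 CPM in library 3 (next 1.75). At IM3h Tubb3 stood at 124 CPM in library 1 (next 36.8). At IM24h Tubb5 was low in library 3, at 23.8 CPM (next 126).

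The change after IM differed between RiboTag and ME for Tuba4a at IM3h, by a log2 difference of -1.23 (edgeR adjusted p = 0.0464), and for Tubb2b at IM72h, by -6.69 (edgeR adjusted p = 0.00125). The fractions differ in mouse line at IM3h, and ME changes line between naïve and IM72h, so line cannot be told apart from either difference.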

How the results depend on the processing

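No paired analysis was possible because the library names carry no replicate number. Of 408 alternative values of called members, 329 kept call and direction, 78 lost the call and 1 turned direction, and of 1356 values called in neither fit 137 changed sign. Causes were not tested. Numbers of members called follow, with the share of all genes called higher and lower in the same fit where more than 1 member was called, single left-out libraries aside. Scaled to library totals, RiboTag against naïve had 0 at IM24h and 2 at IM72h (0.295% and 20.9%), RiboTag IM24h against IM3h had 1, RiboTag against ME in naïve mice had 1, and the interactions had 0, 1 and 6 at the 3 times (0.796% and 42.4% for the last). Scaled to Actb, Hsp90ab1 and Rplp1, RiboTag had 2 (1.51% and 1.91%), 0 and 3 (0.354% and 22.2%), ME at IM3h had 6 (10.3% and 35.0%), RiboTag IM24h against IM3h had 0, the naïve fractions had 1, and the interactions at IM3h and IM72h had 0 and 4 (1.40% and 27.9%). Scaled to totals without AY036118, RiboTag at IM24h had 0, IM24h against IM3h 1, the naïve fractions 1 and the IM72h interaction 4 (1.85% and 23.8%). DESeq2 called 3 in RiboTag at IM24h (3.35% and 2.49%) and 3 (2.25% and 2.24%), 1 and 3 (6.27% and 25.6%) in the interactions. Without a filter, RiboTag at IM72h and the IM3h interaction had 0. With all groups in 1 fit, RiboTag had 0 at IM3h, 0 at IM24h and 0 for IM24h against IM3h, and ME IM72h against IM24h had 5 (21.0% and 21.9%). Without both IM24h libraries in which AY036118 took most counts, chosen after seeing the data, RiboTag at IM24h had 0 and IM24h against IM3h had 1. Leaving out 1 library gave 2 to 4 (RiboTag IM3h, 2 without naïve library 2), 0 to 2 (RiboTag IM24h), 0 to 4 (RiboTag IM72h, 0 without naïve library 2), 3 (ME IM3h), 4 to 5 (ME IM24h), 4 to 6 (ME IM72h), 0 to 1 (RiboTag IM24h against IM3h), 2 to 4 (ME IM72h against IM24h), 2 to 7 (naïve fractions), and 0 to 3, 0 to 1 and 1 to 4 (interactions). Among values that passed the test in either fit, direction turned with the reference genes for Tuba1b in RiboTag at IM72h (-1.54), Tuba1b and Tubb3 in ME at IM3h (-0.36 and -0.37) and Tubb5 in ME at IM72h (-0.11), and with library totals for Tuba4a and Tubb3 in ME at IM72h (0.55 and 0.54). The reference genes moved the median of all genes by -0.41 in ME at IM3h and -1.67 in RiboTag at IM72h, so small changes of other members turned too. RiboTag libraries at IM72h held 56 to 665 beta tubulin counts each, which limits the precision of their shares.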

Other observations

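The methods name Tubb4 among reference transcripts for quantitative PCR, and Tubb4 is listed in RefSeq as a synonym of Tubb4a. The study's legends name Tubb4 for RiboTag mRNA of naïve mice and of mice with laparotomy but no IM, and for cultured glia. It always stood beside other references there. For quantitative PCR of ME after IM, the legend names ribosomal RNA as the only reference. In ME, Tubb4a stood at 14.4, 14.6 and 14.5 CPM in naïve mice, at 6.19, 10 and 7.3 CPM at IM3h, at 1.32, 0.5, 0.455 and 3.1 CPM at IM24h and at 4.87, 6.23, 5.95 and 7.59 CPM at IM72h. No operated ME group overlapped with naïve mice. In RiboTag, Tubb4a stood at 5.69, 10.8 and 7.43 CPM in naïve mice and at 6.61, 3.89, 5.44 and 2.88 CPM at IM3h, overlapping groups whose difference was not called (log2 -0.70 ± 0.582, edgeR adjusted p = 0.504). At IM24h it was at 4.88, 1.22, 0 and 1.33 CPM and at IM72h at 0.473, 0, 13.4 and 0 CPM, and neither was called. The study names a commercial assay for this transcript, whose target sequence was not analysed here.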
